A study of Mus musculus with 6 samples.

Results

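Neurotrophins are secreted growth factors that act through the Trk receptor tyrosine kinases and the p75 neurotrophin receptor. The genes described here are 3 ligands (Bdnf, Ntf3 and Ntf5), their receptors Ntrk2 (TrkB), Ntrk3 (TrkC) and Ngfr (p75NTR), and the sorting receptor Sort1 (sortilin), measured in mouse lung. These 7 genes were taken by symbol from the 56262 genes of the count table. Ntrk2 was chosen by its measured difference between R/R and WT lungs in an earlier analysis of these libraries, and the other 6 genes as its ligands and related receptors. The values of R/R against WT lungs, on which the choice was made, are therefore a description and carry no test.

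Lung RNA was sequenced from 3 R/R mice and 3 WT littermates, all 8 weeks old, untreated and on the C57BL/6 background. R/R mice carry the RBM47 substitutions K329R and K332R, introduced by CRISPR/Cas genome engineering and present on both alleles in every cell type. RBM47 is an RNA-binding protein, and a change of lysine to arginine removes a residue to which the ubiquitin-like protein ISG15 can be attached. The study used these lungs to look for the molecular background of the lung phenotype of R/R mice. The libraries held 16501092 to 18141067 counted read pairs, 17120 genes had enough counts to be tested, and 3 counts corresponded to 0.166 to 0.182 CPM (counts relative to the library total, scaled by edgeR's TMM method). Rbm47 mRNA was at 33.4 ± 0.712 CPM (R/R) and 31.2 ± 2.89 CPM (WT; SD, n = 3 each), and gene counts do not show the substituted codons. Epithelial and endothelial genes that define lung were abundant in all 6 libraries. Over 8 markers, among them Sftpc, Ager, Scgb1a1 and Pecam1, they summed to 35636 to 38731 CPM (R/R) and 28621 to 35958 CPM (WT). The genotypes overlapped.

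BDNF and NT-4 (encoded by Ntf5) are the high-affinity ligands of TrkB, and NT-3 (encoded by Ntf3) is that of TrkC. p75NTR binds all neurotrophins with lower affinity and, with sortilin, their unprocessed precursors. TrkB is made as a full-length receptor with a kinase domain and as truncated forms that lack it. Outside the nervous system, neurotrophins are known in the lung as products of airway epithelium and smooth muscle and as factors for its sensory and autonomic nerves.

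Ntrk2 (ENSMUSG00000055254.15) spans chromosome 13 from 58806569 to 59133970 on the plus strand of GRCm38. The annotation lists 10 transcripts, of which 7 are coding and encode 466 to 821 amino acids, and 2 of these have the longest, kinase-containing reading frame. Gene counts sum all of them, so full-length and truncated TrkB cannot be told apart here. The 250 bases upstream of the RefSeq start (GRCm38.p6, chr13:58806319-58806568, plus strand) are shown because Ntrk2 is the gene with the difference. Bdnf is a textbook target of the cyclic AMP-responsive factor CREB, so the windows were searched for the CREB core motif TGACG on both strands. The single neurotrophin window with a match, at an internal Bdnf start (chr2:109692186-109692435, plus strand), is shown beside it with the match in capitals, on the minus strand and therefore read as CGTCA.
Ntrk2: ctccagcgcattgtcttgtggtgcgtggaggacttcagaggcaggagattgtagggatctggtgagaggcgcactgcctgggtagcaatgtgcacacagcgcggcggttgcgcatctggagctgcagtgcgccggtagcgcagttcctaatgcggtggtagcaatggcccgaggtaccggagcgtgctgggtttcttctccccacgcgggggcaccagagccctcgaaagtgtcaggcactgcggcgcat
Bdnf: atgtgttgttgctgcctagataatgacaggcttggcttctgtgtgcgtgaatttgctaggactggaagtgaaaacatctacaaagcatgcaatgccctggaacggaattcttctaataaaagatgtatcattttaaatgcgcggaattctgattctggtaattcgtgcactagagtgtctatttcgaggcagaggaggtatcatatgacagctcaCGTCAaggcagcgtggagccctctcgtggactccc
RefSeq windows were given for 4 of the 7 genes (Bdnf, Ntf3, Ngfr and Ntrk2), 11 windows in all, and 1 of the 11 held the motif, against 17.8% of all 32851 RefSeq windows of this length. The Ntrk2 window had no match, which says only that these letters are not in these 250 bases.

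The receptor Ntrk2 was lower in R/R than in WT lungs. Its counts were 197, 298 and 324 in the 3 R/R lungs and 704, 937 and 701 in the 3 WT lungs (values per lung are given in the order of replicates 1, 2 and 3 throughout). Scaled by depth these were 10.9, 17.8 and 19.1 CPM in R/R lungs and 42.8, 51.7 and 41.0 CPM in WT lungs. The highest R/R lung lay far below the lowest WT lung, and R/R replicate 1 was the lowest of all 6. The mean was 15.9 ± 4.39 CPM (R/R) and 45.2 ± 5.73 CPM (WT; SD, n = 3 each), a log2 fold change of -1.51 (standard error 0.17), or a 2.84-fold higher level in WT lungs. In whole-lung RNA, fewer cells of a type and less RNA per cell cannot be told apart. Leaving out single lungs, the log2 fold change of Ntrk2 ranged from -1.66 to -1.29. Ranked by log2 fold change from the lowest, Ntrk2 stood at place 39 of 17120 tested genes.

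Ntrk3, the receptor for NT-3, was also lower in every R/R lung than in every WT lung and was less abundant than Ntrk2. It was at 4.38, 4.42 and 5.30 CPM in the 3 R/R lungs and at 7.29, 7.84 and 6.97 CPM in the 3 WT lungs. These values rest on 74 to 90 counts per R/R lung and 119 to 142 counts per WT lung. The mean was 4.70 ± 0.518 CPM (R/R) and 7.36 ± 0.440 CPM (WT; SD, n = 3 each), and the log2 fold change was -0.65 (standard error 0.16), or a 1.57-fold higher level in WT lungs. Ntrk3 lies on chromosome 7 from 78175959 to 78738012 on the minus strand, and its 6 coding transcripts encode 82 to 864 amino acids, so its counts also mix full-length and truncated receptors.

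Ngfr, the p75 neurotrophin receptor, was scarce, with 15 to 22 counts per R/R lung and 14 to 31 counts per WT lung. Its level was 0.943, 0.897 and 1.30 CPM in the 3 R/R lungs and 1.58, 1.71 and 0.820 CPM in the 3 WT lungs. WT replicate 3 was the lowest of all 6 lungs, so the genotypes overlapped. The log2 fold change was -0.39 with a standard error of 0.35, so no difference could be detected with counts this low. It was -0.20 without WT replicate 2 and -0.66 without WT replicate 3.

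Sort1 was the most abundant of the 7 genes, with 9194 to 10875 counts per lung. It was at 604, 589 and 639 CPM in the 3 R/R lungs and at 558, 580 and 585 CPM in the 3 WT lungs. Every R/R lung lay above every WT lung, but by a margin of only a few CPM between R/R replicate 2 and WT replicate 3. The log2 fold change was 0.09 (standard error 0.06). An antisense gene, Gm12523, shares 338 exonic bases with Sort1 and had 4 to 9 counts per lung. Counting used no strand, and read pairs that touched both genes were not counted.

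Among the ligands, Bdnf was the most abundant and the one with the largest fold change. Its level was 26.5, 34.6 and 22.1 CPM in the 3 R/R lungs and 21.1, 22.9 and 21.3 CPM in the 3 WT lungs. The genotypes overlapped, since R/R replicate 3 was no higher than WT replicate 2, and R/R replicate 2 was the highest. The mean was 27.7 ± 6.32 CPM (R/R) and 21.7 ± 1.01 CPM (WT; SD, n = 3 each), and the log2 fold change was 0.35 (standard error 0.14), falling to 0.16 without R/R replicate 2. The opposite-strand gene Gm45346 shares 896 exonic bases with Bdnf and had 0 counts in all 6 lungs.

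Ntf5, which encodes NT-4, the other TrkB ligand, was at 7.21, 6.04 and 6.42 CPM in the 3 R/R lungs and at 8.32, 7.84 and 5.50 CPM in the 3 WT lungs. WT replicate 3 was the lowest lung and the genotypes overlapped, and the log2 fold change was -0.14 (standard error 0.18). Ntf3, which encodes NT-3, was at 1.17, 2.03 and 1.24 CPM in the 3 R/R lungs and at 0.486, 1.88 and 2.22 CPM in the 3 WT lungs. Its log2 fold change was -0.06 (standard error 0.45) and its sign was not stable, with values from -0.48 (without WT replicate 1) to 0.29 (without WT replicate 3). Its lowest lung, WT replicate 1, had 8 counts.

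**Figure D1:**
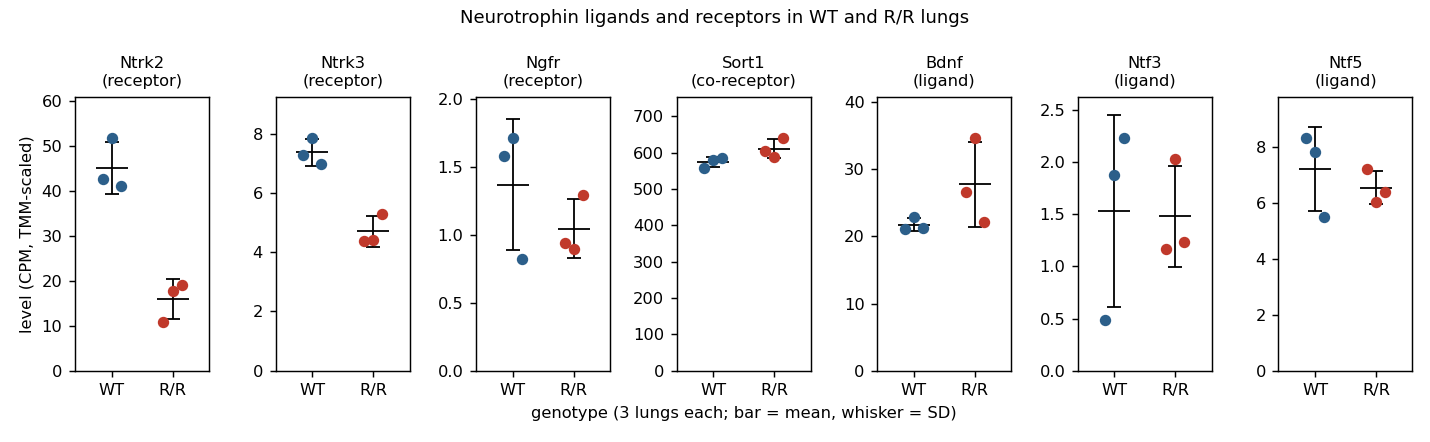
Level of each of the 7 genes in CPM (linear axis from 0, scaled separately for each gene) in the 3 WT lungs (blue) and 3 R/R lungs (red), with the mean (bar) and SD (whisker) of each genotype. Ntrk2 was at 10.9 to 19.1 CPM in R/R lungs and 41.0 to 51.7 CPM in WT lungs, Ntrk3 was also separated, and the 3 ligands overlapped between the genotypes.

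All 7 genes passed the filter on low counts. The genotypes did not overlap for 3 of them, 2 lower (Ntrk2 and Ntrk3) and 1 higher (Sort1) in R/R lungs, where 18.7% of all tested genes did not overlap (9.50% lower and 9.17% higher). With edgeR's quasi-likelihood test and a threshold of 0.05 on the adjusted p, 1 of the 7, Ntrk2, was a DEG (lower in R/R lungs), where 1.75% of all tested genes were DEGs, 1.10% lower and 0.648% higher. Since the same contrast chose the genes, nothing is read from these counts. The fold changes of all 3 receptors (Ntrk2, Ntrk3 and Ngfr) were below 0, and of the 3 ligands 1 was above and 2 were below 0. The median log2 fold change of all tested genes was 0.00.

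Levels of different genes were compared as TPM (counts divided by the exon length of each gene and scaled to the same total in every lung). In WT lungs the order was Sort1 (260 ± 5.15 TPM), Bdnf (12.0 ± 0.731), Ntf5 (9.37 ± 2.16), Ntrk2 (8.05 ± 1.15), Ntf3 (3.04 ± 1.79), Ngfr (1.37 ± 0.507) and Ntrk3 (0.838 ± 0.0674; SD, n = 3 each). The neighbouring pairs Ntf5 and Ntrk2, Ntf3 and Ngfr, and Ngfr and Ntrk3 overlapped over the 3 WT lungs, and the other neighbours did not. In R/R lungs Ntrk2 was at 2.74 ± 0.738 TPM and stood below Ntf3 at 2.85 ± 0.859 TPM (SD, n = 3 each), with overlapping ranges, while the order of the other 6 genes was as in WT lungs. The exon lengths used here sum all annotated transcripts (19292 bases for Ntrk2 and 30170 bases for Ntrk3 against 1714 bases for Ntf3), so the TPM of a gene expressed as short transcripts is understated.

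Ligands and receptors were set against each other within each lung. The summed TPM of the ligands Bdnf, Ntf3 and Ntf5 was 25.8, 29.2 and 22.4 in the 3 R/R lungs and 23.8, 26.9 and 22.6 in the 3 WT lungs, and the genotypes overlapped. The summed TPM of the receptors Ntrk2, Ntrk3 and Ngfr was 3.31, 4.30 and 5.17 in the 3 R/R lungs and 10.2, 11.9 and 8.64 in the 3 WT lungs. The receptor sum was thus separated between the genotypes and the ligand sum was not. Most of the receptor sum is Ntrk2, which chose the comparison.

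The ratio of Bdnf to Ntrk2, as CPM, was 2.43, 1.94 and 1.16 in the 3 R/R lungs and 0.493, 0.443 and 0.518 in the 3 WT lungs. The ratio was higher in every R/R lung than in every WT lung. Its size depends on the scale, since CPM does not correct for exon length, and by TPM Bdnf was above Ntrk2 in all 6 lungs. Ntrk2 also made up a smaller part of the Trk receptor counts, with 69.4%, 78.2% and 74.8% of the Ntrk2 and Ntrk3 counts in the 3 R/R lungs and 84.9%, 86.4% and 83.9% in the 3 WT lungs. Of the other 6 genes, Ntrk3 had the profile over the 6 lungs nearest to that of Ntrk2, with a root mean square distance of 0.49 between their centred log2 CPM, and Ntf3 was the farthest at 1.10.

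The rest of the pathway was taken from lists by role, without the 7 genes. Of 111 such genes 98 were tested, and 1, the target gene Nr4a1, was a DEG, higher in R/R lungs (edgeR's quasi-likelihood test, Benjamini-Hochberg adjustment over all 17120 genes). Of all tested genes 1.75% were DEGs and 0.648% were DEGs higher in R/R lungs. The median log2 fold change of the 98 genes was 0.01 with 53 above and 45 below 0. An unadjusted p under 0.05 was reached by 22 of the 98 (22.4%), against 14.2% of all tested genes. DESeq2 called 3.16% and limma-voom 1.47% of all tested genes, against which their counts in the lists below are to be read. The number of DEGs in the lists was 0 without WT replicate 1, 2 without WT replicate 2 and 7 without WT replicate 3 (7.14%, where 3.56% of all genes were DEGs in that fit).

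Upstream of the receptors, 0 of 5 tested co-receptor genes was a DEG by edgeR, DESeq2 or limma-voom, and 0 reached an unadjusted p under 0.05. The 2 with the largest fold changes were Lingo1, a partner of p75NTR in the Nogo receptor complex, at a log2 fold change of 0.13 (standard error 0.29), and the sorting receptor Sorl1, at -0.10 (standard error 0.07). Among 10 tested genes for the processing of neurotrophin precursors, such as Furin and the plasminogen activator Plat, 0 were DEGs by edgeR, with 3 at an unadjusted p under 0.05 (14.2% of all tested genes) and 1 DEG by DESeq2 (3.16%). The 2 with the largest fold changes, both matrix metalloproteinases, pointed in opposite directions. Mmp3 was at 20.6 ± 5.39 CPM (R/R) and 11.6 ± 5.61 CPM (WT; SD, n = 3 each, edgeR adjusted p = 0.181). Mmp9 was at 13.2 ± 1.73 CPM (R/R) and 23.0 ± 9.67 CPM (WT; SD, n = 3 each, edgeR adjusted p = 0.175).

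Downstream of the receptors, 0 of 23 tested adaptor genes, 0 of 29 kinase and phospholipase genes and 0 of 21 p75NTR partners and effectors were DEGs by edgeR. An unadjusted p under 0.05 was reached by 4, 6 and 2 of them (14.2% of all tested genes), and DESeq2 called 1 adaptor (Dok4), 0 kinases and 1 p75NTR gene (Psen2), while limma-voom called 0. The adaptor Dok4 was at 42.6 ± 1.34 CPM (R/R) and 54.8 ± 6.31 CPM (WT; SD, n = 3 each), without overlap between the genotypes, and the log2 fold change was -0.36 (standard error 0.08, edgeR adjusted p = 0.0573). Shc4, an adaptor of the Shc family, had the same log2 fold change of -0.36 with a standard error of 0.33. Of the calmodulin-dependent kinases, Camk2b had a log2 fold change of 0.77 (standard error 0.32, edgeR adjusted p = 0.299) and Camk2a one of -0.51 (standard error 0.21, edgeR adjusted p = 0.284). In the p75NTR list the largest were Psen2, a subunit of the gamma-secretase that cleaves p75NTR, at 0.39 (standard error 0.11, edgeR adjusted p = 0.105), and the sphingomyelinase Smpd2 at -0.19 (standard error 0.08, edgeR adjusted p = 0.282).

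The target list holds immediate early and feedback genes that many growth factors induce, Trk ligands among them. Like all lists here it was chosen with earlier results of these data known, so its shares are a description. Of its 10 tested genes 9 had a fold change above 0, as had 51.2% of all tested genes, and 7 reached an unadjusted p under 0.05, as did 14.2%. The median log2 fold change was 0.47 against 0.00 over all tested genes, and 6 were higher in every R/R lung than in every WT lung, where 9.17% of all tested genes were. The orphan nuclear receptor gene Nr4a1 was at 58.9, 90.5 and 74.2 CPM in the 3 R/R lungs and at 41.4, 44.4 and 45.8 CPM in the 3 WT lungs. It rose by a log2 fold change of 0.76 (standard error 0.12, edgeR adjusted p = 0.0148), and its adjusted p was 0.0669 without WT replicate 1. The transcription factor genes Fos and Egr1 had larger fold changes that did not pass edgeR's test, 1.19 for Fos (standard error 0.29, edgeR adjusted p = 0.0683) and 1.06 for Egr1 (standard error 0.26, edgeR adjusted p = 0.0673). DESeq2 called 1 of the 10 target genes (3.16% of all tested genes). By limma-voom 2 were called (1.47%), Fos among them (limma-voom adjusted p = 0.0454). Without WT replicate 3 edgeR called both Fos and Egr1 (adjusted p = 0.000599 and 0.00986), and without any other single lung it called neither. The MAP kinase phosphatase gene Dusp6, a feedback gene of the ERK pathway, was at 112 ± 7.81 CPM (R/R) and 110 ± 5.08 CPM (WT; SD, n = 3 each).

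**Figure D2:**
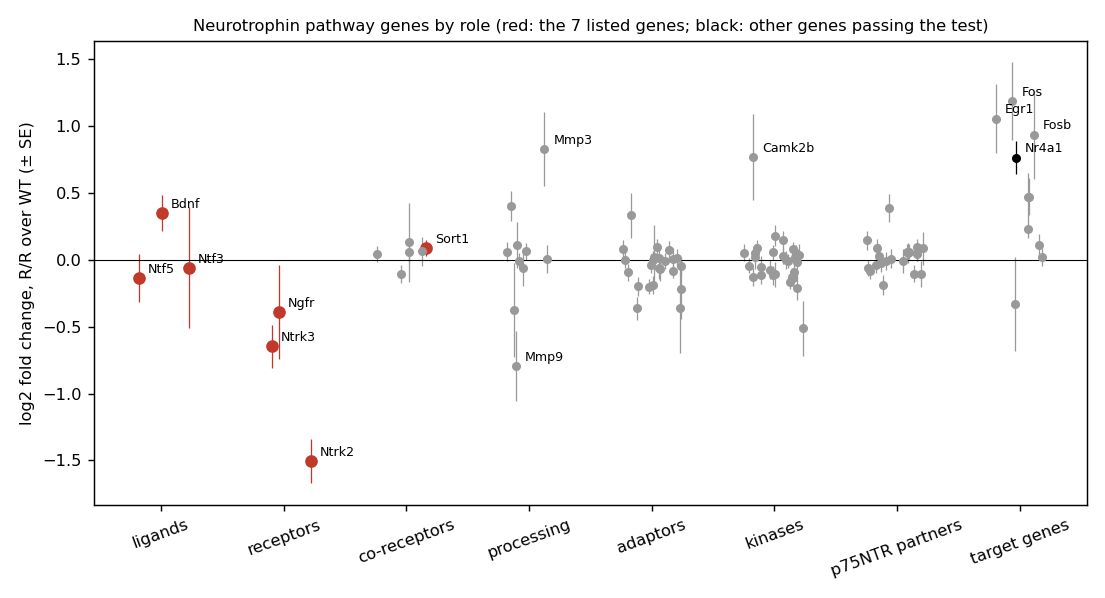
Log2 fold change of R/R over WT (points, with standard error as whiskers) for the tested neurotrophin pathway genes by role, with the 7 genes in red and other genes passing edgeR's test in black. Ntrk2 at -1.51 is the lowest point, the signalling genes gather around 0, and the target genes Fos, Egr1, Fosb and Nr4a1 lie above 0, of which Nr4a1 passed the test.

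Ntrk2 and Ntrk3 were next compared with the other receptor tyrosine kinases, the class of cell surface receptors to which Trk receptors belong. Of 56 other genes of the class 47 were tested, and 1, Pdgfrb, was a DEG, lower in R/R lungs by edgeR's quasi-likelihood test (1.10% of all tested genes were), while 9 reached an unadjusted p under 0.05, as did 14.2% of all tested genes. The median log2 fold change of the 47 was 0.01. Among the 49 tested genes with the Trk receptors included, Ntrk2 had the lowest log2 fold change (-1.51) and Ntrk3 the second lowest (-0.65), followed by Fgfr4 at -0.37. These ranks describe the contrast that chose Ntrk2. At the other end stood Ephb1 at 0.73 (standard error 0.33) and Ros1 at 0.67 (standard error 0.17).

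Both Trk receptors were among the less abundant receptor tyrosine kinases. By TPM, Ntrk2 ranked 37 of 49 from the highest in WT lungs and 43 in R/R lungs, and Ntrk3 ranked 45 and 49. The endothelial receptors Tie1 and Tek led in both genotypes, at 380 ± 39.3 and 370 ± 45.3 TPM in WT lungs (SD, n = 3 each). Pdgfrb, the platelet-derived growth factor receptor of pericytes and other mesenchymal cells, was at 302, 313 and 289 CPM in the 3 R/R lungs and at 415, 397 and 355 CPM in the 3 WT lungs. It fell by 0.37 on the log2 scale (standard error 0.07, edgeR adjusted p = 0.0268). The call was lost without any one of R/R replicates 1, 2 and 3 and WT replicates 1 and 2, with adjusted p up to 0.112.

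**Figure D3:**
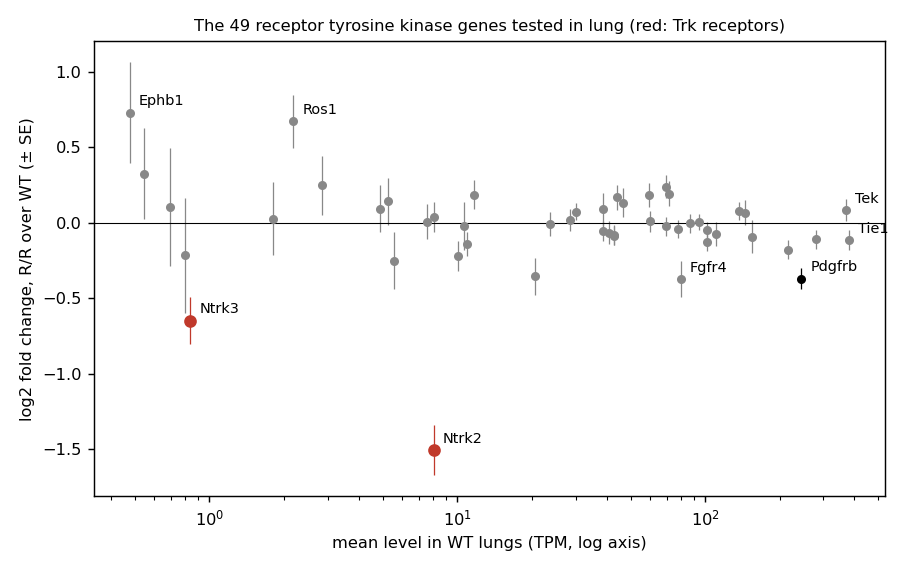
Each point is 1 of the 49 tested receptor tyrosine kinase genes, with the mean WT level in TPM on a log axis and the log2 fold change of R/R over WT with its standard error. Ntrk2 and Ntrk3 (red) are the lowest points, at -1.51 and -0.65, and Pdgfrb (black) is the gene outside the Trk family that passed the test.

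The genes whose profile over the 6 lungs was most like that of Ntrk2 were ranked by the root mean square distance between log2 CPM values, each centred on the mean of the 6 lungs, for genes averaging at least 1 on the log2 CPM scale. Since any gene with a similar genotype difference comes near Ntrk2 by this measure, the genotype difference of these genes is fixed by the choice. The nearest was Slc26a10, a member of the Slc26 anion transporter family, at a distance of 0.16, followed by Gxylt2, a xylosyltransferase that extends O-glucose glycans on Notch, at 0.20. Then came Mfap4, a microfibril-associated protein of elastic fibres, at 0.25, the myosin light chain kinase family gene Mylk4 at 0.27, and the circadian transcription factor gene Npas2 at 0.31.

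All 5 were lower in every R/R lung than in every WT lung. Mfap4 was by far the most abundant, at 429, 494 and 485 CPM in the 3 R/R lungs and at 1274, 1620 and 913 CPM in the 3 WT lungs. Its log2 fold change was -1.44 (standard error 0.16). Gxylt2 was at 4.63 ± 0.599 CPM (R/R) and 11.6 ± 0.686 CPM (WT; SD, n = 3 each), a log2 fold change of -1.32 (standard error 0.15). Npas2 was at 2.63 ± 0.160 CPM (R/R) and 6.57 ± 1.04 CPM (WT; SD, n = 3 each), also a log2 fold change of -1.32 (standard error 0.19). All 5 genes were lowest in R/R replicate 1, as Ntrk2 was, with Slc26a10 at 1.66 CPM and Mylk4 at 0.888 CPM there, the latter from 16 counts. In WT lungs Slc26a10 was at 5.62 to 8.78 CPM and Mylk4 at 3.64 to 4.37 CPM.

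**Figure D4:**
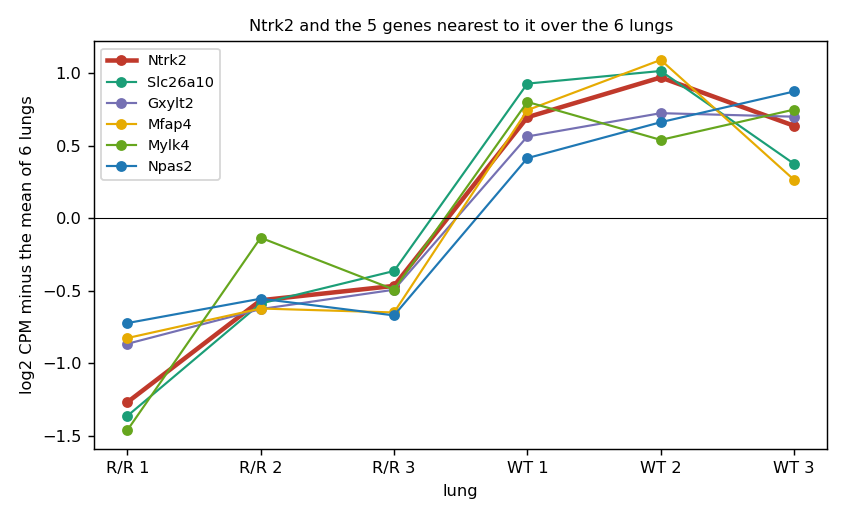
Log2 CPM of Ntrk2 and the 5 genes nearest to it, each minus its mean over the 6 lungs, with the R/R lungs on the left and the WT lungs on the right (lines join the points of a gene and stand for no order of lungs). All 6 genes lie below 0 in the R/R lungs and above 0 in the WT lungs, and all 6 have their lowest value in R/R replicate 1.

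The genes around Ntrk2 on chromosome 13 had small fold changes. Within 1 Mb on either side of the gene 66 genes are annotated and 18 were tested. Of these 18, 0 were DEGs by edgeR, DESeq2 or limma-voom, where 1.75%, 3.16% and 1.47% of all tested genes were. An unadjusted p under 0.05 was reached by 14.2% of all tested genes and by 0 of these 18. Their log2 fold changes ran from -0.33 (Mir7-1) to 0.32 (Klhl3), and that of the nearest tested gene, Agtpbp1, was -0.04 (edgeR adjusted p = 0.853). The 4 annotated genes that overlap the Ntrk2 locus, 3 of them on the opposite strand, share 0 exonic bases with it and had at most 1 count in any lung.

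Ntrk2 and Ntrk3 are known from nerves and from mesenchymal cells of several tissues, so marker genes of those cell types are given beside them. Neuronal markers were nearly absent. Of 11 neuron markers 9 stayed under 10 counts in every lung, Nefl, Th and Chat were among those listed at 0 counts in all 6 lungs, and Stmn2 alone made up 87.5% to 94.6% of the summed level. That sum was 46.2 to 57.9 CPM in R/R lungs and 52.4 to 65.2 CPM in WT lungs and overlapped. For Schwann cells, the defining factor Sox10 had 3 to 8 counts per lung, and 6 of 10 markers were tested. Of these 6, 1 was a DEG by edgeR, 1 by DESeq2 and 1 by limma-voom, where 1.75%, 3.16% and 1.47% of all tested genes were. An unadjusted p under 0.05 was reached by 2 of the 6, against 14.2% of all tested genes. The DEG by edgeR was the sodium channel gene Scn7a, which fell by 0.35 on the log2 scale (edgeR adjusted p = 0.0493). The call of Scn7a was lost when any one of R/R replicates 1, 2 and 3 and WT replicates 1 and 2 was left out, with adjusted p up to 0.188. Of the 6 tested genes 3 had a log2 fold change above and 3 below 0, with a median of -0.02. Scn7a supplied 81.0% to 87.6% of the Schwann cell sum, which was 852 to 871 CPM in R/R lungs and 966 to 1130 CPM in WT lungs. That sum therefore mostly follows Scn7a and not the list as a whole.

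The summed levels of pericyte and fibroblast markers were lower in R/R lungs, by less than Ntrk2. The summed pericyte markers were at 1146 to 1261 CPM in R/R lungs and 1351 to 1519 CPM in WT lungs, without overlap, with a median log2 fold change of -0.25 over the 9 tested genes. Of these 9, 1 was a DEG by edgeR (Pdgfrb), 4 by DESeq2 and 1 by limma-voom, and 6 reached an unadjusted p under 0.05, where 1.75%, 3.16%, 1.47% and 14.2% of all tested genes did. The summed fibroblast markers were at 5274 to 5654 CPM in R/R lungs and 6095 to 6512 CPM in WT lungs, also without overlap, with a median of -0.17 over 10 tested genes. Of these 10, 0 were DEGs by edgeR, 2 by DESeq2 and 1 by limma-voom, and 4 reached an unadjusted p under 0.05. Smooth muscle markers summed to 466 to 562 CPM in R/R lungs and 499 to 699 CPM in WT lungs and overlapped, with a median of -0.22 over 8 tested genes, of which 0 were DEGs by edgeR, 1 by DESeq2 and 1 at an unadjusted p under 0.05. The lowest log2 fold change among the pericyte, fibroblast and smooth muscle markers was -0.40, against -0.65 for Ntrk3 and -1.51 for Ntrk2. In the Schwann cell list S100b was at -0.90 (standard error 0.39, edgeR adjusted p = 0.323) from 5 to 19 counts per lung, without overlap between the genotypes. The part of these cell types in the levels of Ntrk2 and Ntrk3 was not tested.

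**Figure D5:**
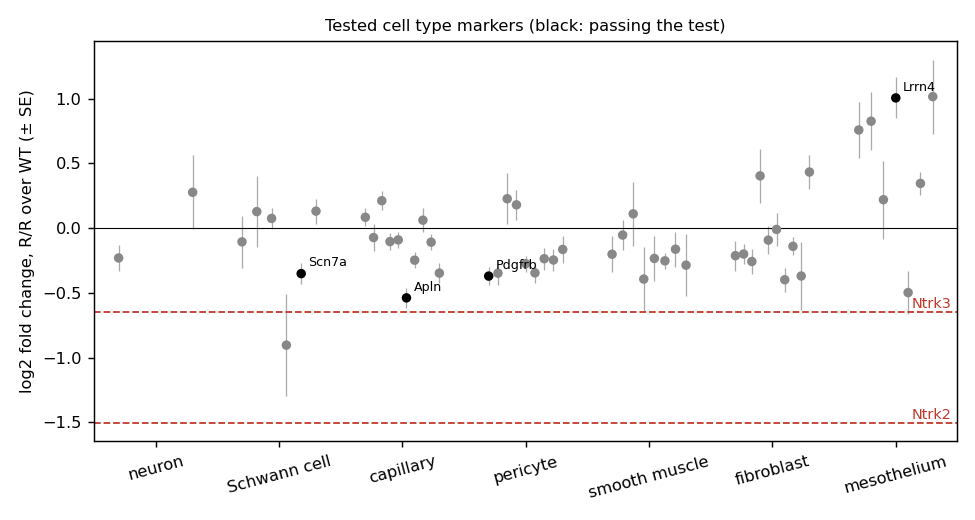
Log2 fold change of R/R over WT with standard error for the tested markers of 7 cell types, with genes passing edgeR's test in black and the values of Ntrk2 and Ntrk3 as dashed red lines. Pericyte, fibroblast and smooth muscle markers lie mostly a little below 0 and above both red lines, and mesothelial markers lie mostly above 0.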

How the data were processed

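RNA-seq libraries of 6 lungs, 3 per genotype, were used (paired reads of 150 bases). The authors aligned reads to GRCm38 (mm10) with HISAT2 2.1.0 and, per the file headers, counted read pairs per gene with featureCounts 2.0.1 and GENCODE M25, without strand and without multi-mapping pairs. The deposited values are raw counts, with the exon length of each gene beside them. One deposited column was entered in the records as an estimated count because a check misread the table's comment line, but it holds whole numbers and none was rounded. The supplement describes stranded sequencing and Trizol extraction, the labels RNeasy columns. The submitters' processing notes name DESeq2 and the supplement edgeR. Symbols for 55141 of 56262 identifiers and loci came from GENCODE M21, and promoter sequences from RefSeq.

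Counts were filtered (edgeR 4.0.16 filterByExpr, minimum count 10, minimum total 15), TMM-scaled and tested by quasi-likelihood (glmQLFit, glmQLFTest; R 4.3.3), with Benjamini-Hochberg adjustment over 17120 genes and a threshold of 0.05. Each standard error is the size of the log2 fold change over the root of its F statistic. Log2 CPM used a prior count of 0.5. DESeq2 1.42.0, limma-voom (limma 3.58.1), other scalings and filters, a replicate block and single lungs left out were the alternatives. The 7 genes and all lists were chosen with earlier results of these data known. Named were the 7 genes, list genes passing the test, the 2 of largest fold change per role, the 5 genes nearest Ntrk2 and its tested neighbours. Some genes that this rule names are not reported here. Examples from the target and marker lists outside this rule, Rbm47, and the kinases at the ends of the ranking were chosen after their values were seen. Replicates of a genotype differed by more than sampling noise (chi-square per degree of freedom 5.22 to 8.31). The supplement calls them biological replicates. The SDs and standard errors given include variation between lungs.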

Additional observations from a re-analysis of the deposited data

How the results depend on the processing

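The log2 fold changes of the 7 genes moved in all 91 alternative values by less than the SD of log2 CPM between lungs of one genotype. Over the 6 fits without a single lung, log2 fold changes ranged from -0.74 to -0.60 for Ntrk3, from 0.16 to 0.49 for Bdnf, from -0.48 to 0.29 for Ntf3, from -0.30 to -0.03 for Ntf5, from -0.66 to -0.20 for Ngfr and from 0.05 to 0.11 for Sort1. With DESeq2 the DEGs numbered 541 among all genes (300 as reported), 4 among the pathway genes and 2 among the receptor tyrosine kinases (1 each as reported). With no filter they numbered 1109, 11 and 5, and limma-voom called 2 pathway genes. Without single lungs they ranged from 65 to 621 among all genes, from 0 to 7 among pathway genes and from 0 to 3 among receptor tyrosine kinases. The cause of these shifts was not tested. Replicate numbers did not pair the lungs (correlations of same-numbered lungs from -0.0148 to -0.0036), and no lung correlated best with the lung of its own number. The fit with the replicate block called 7 pathway genes (7.14% of those tested) and 446 genes in all (2.61%). Depth limits Ntf3 and Ngfr most, with at most 38 counts in any lung.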

Other observations

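Among mesothelial markers 1 of 7 tested genes was a DEG by edgeR, 3 by DESeq2 and 1 by limma-voom, and 6 reached an unadjusted p under 0.05, where 1.75%, 3.16%, 1.47% and 14.2% of all tested genes did. Of the 7, 6 had a log2 fold change above 0 and the median was 0.76. Lrrn4, a membrane protein gene used to mark mesothelium, rose by 1.01 on the log2 scale (standard error 0.16, edgeR adjusted p = 0.0124), from 8.78 ± 1.81 CPM in WT lungs to 17.6 ± 2.65 CPM in R/R lungs (SD, n = 3 each). Its adjusted p was 0.0699 without R/R replicate 2 and 0.0567 without WT replicate 1. The summed markers were at 278 to 373 CPM in R/R lungs and 239 to 294 CPM in WT lungs and overlapped. Capillary endothelial markers summed to 3483 to 3750 CPM in R/R lungs and 3681 to 4025 CPM in WT lungs and also overlapped, with 3 DEGs of 10 by DESeq2, 2 by limma-voom and 1 by edgeR, Apln, which encodes the ligand of the apelin receptor and fell by 0.54 on the log2 scale (standard error 0.08, edgeR adjusted p = 0.00893).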
